A study of Mus musculus with 12 samples.

Results

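The cerebral cortex and the hippocampus of the wild-type mouse were compared across 22610 of the 55487 genes in the tables, those with a mean of at least 10 normalised counts over 6 libraries. The 6 were 3 cortex and 3 hippocampus libraries from C57BL/6 mice labelled mTert WT, which carry the intact telomerase reverse transcriptase gene. They make up 6 of the 12 libraries of a study that also holds 3 cortex and 3 hippocampus libraries from C57BL/6 mice labelled mTert KO (G1), where this gene is disrupted. All were bulk RNA-seq of total RNA extracted with Trizol, and the labels used here give no age or sex. Which genes were tested was set by this minimum level alone. The labels do not say whether the libraries came from separate animals, so the p-values measure the spread between these libraries, which may be technical.

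The hippocampus is an older, simpler sheet of cortex than the neocortex. Its principal cells are the granule cells of the dentate gyrus and the pyramidal cells of the CA fields, which signal in series and are known for their part in memory. The neocortex is built of stacked layers whose excitatory neurons are set apart by transcription factors: upper layers project within the cortex and deep layers to the thalamus, brainstem and spinal cord. Both regions share GABA neurons, glia and vessels, and the hippocampus lies against the choroid plexus and the ependyma of the lateral ventricle. In bulk tissue, more cells of a type and more RNA per cell cannot be told apart.

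Values are normalised counts, the reads of a gene after a common rescaling of the 6 libraries. Each difference is given as log2 of hippocampus minus cortex ± its standard error (SE, n = 3 and 3), so positive values are higher in hippocampus. A gene is called where its adjusted p is below 0.05 (limma with Benjamini-Hochberg adjustment over all genes tested). By this rule 5308 genes (23.5%) were called, 2601 (11.5%) higher in hippocampus and 2707 (12%) higher in cortex. A difference of at least 1 on the log2 scale was reached by 1119 genes (4.95%) higher in hippocampus and 984 (4.35%) higher in cortex. With the authors' separate scaling of the 2 tables kept, 6145 genes were called, 4231 higher in hippocampus and 1914 higher in cortex, because the median of all genes then lay at 0.15 and not at 0.01. The count also depended on the libraries kept: 3042 genes were called without hippocampus library 3, which leaves the 2 hippocampus libraries that differed most.

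**Figure D1:**
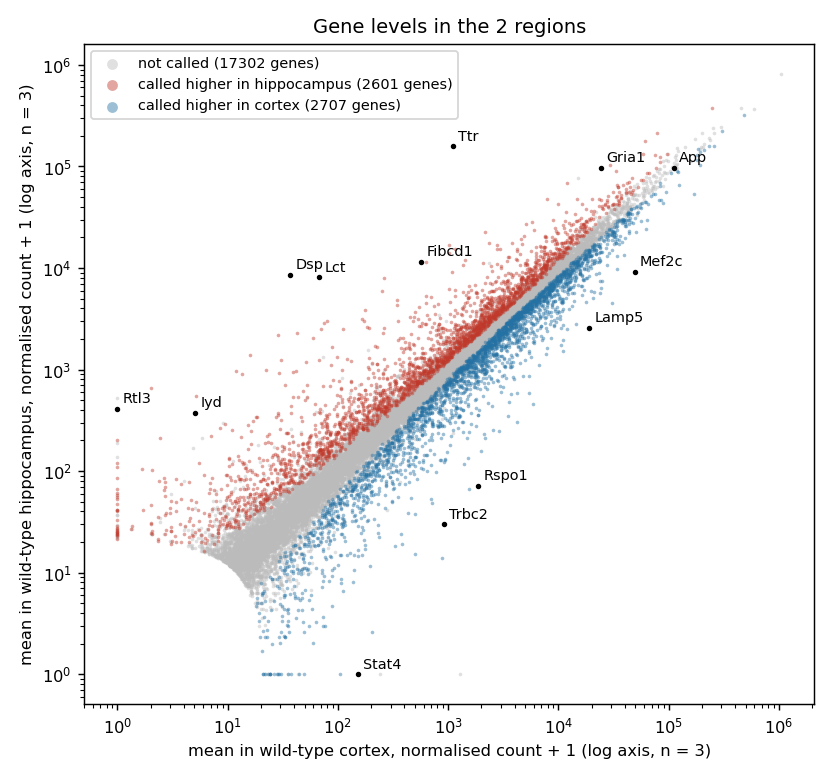
Mean level of each of the 22610 tested genes in wild-type cortex (horizontal, log axis) and wild-type hippocampus (vertical, log axis), in normalised counts + 1 with n = 3 libraries each; red and blue points were called higher in hippocampus (2601) or cortex (2707) and grey points were not called. Most genes lie along the diagonal, while Dsp, Lct and Rtl3 lie far above it and Stat4, Rspo1 and Trbc2 far below.

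The libraries held 69194788 to 75255744 recovered reads. Cortex library 2 stood apart from the other cortex libraries: the chi-square per gene was 102 against library 1 and 93.9 against library 3, where libraries 1 and 3 gave 9.54. Hippocampus libraries gave 48.8 for 1 against 2, 15.5 for 1 against 3 and 20.4 for 2 against 3. Hippocampus library 3 lay between libraries 1 and 2 in many values given below. The summed level of choroid plexus markers, for example, was 366317, 15812 and 189445 in hippocampus libraries 1 to 3. Whether library 3 is independent of the other 2 was not tested. If it is not, the standard errors are too small. The differences also leaned with transcript length, from a median of -0.07 over 2297 protein-coding genes with up to 2 kb of exon to 0.17 over 868 genes with more than 12 kb. In the knockout libraries the lean was opposite, 0.09 and -0.19 for the same classes. With the trend along exon length removed from the wild-type libraries, 6386 genes were called, 5187 of them as in the main fit. Of the 247 genes followed below, 4 lost their call there and 11 gained one.

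Markers of dentate gyrus granule cells were higher in hippocampus for 19 of 22 genes, with a median difference of 1.68, where 11.5% of all genes tested were higher in hippocampus and the median was 0.01. This list, like the others, was chosen with earlier results of these data known, so its count is no independent test. Akap7 was lower at -0.46 ± 0.07 (adjusted p = 0.00427), and Pdzd2 and Npnt were not called. Dsp, which encodes the desmosomal linker desmoplakin (chromosome 13, 38151294-38198577, GRCm38), was at 45.3, 20.2 and 41.1 in cortex libraries 1 to 3 and at 7679, 9581 and 8423 in hippocampus libraries 1 to 3, a difference of 7.95 ± 0.29 (adjusted p = 8.14e-06). Lct, which encodes the disaccharidase lactase (chromosome 1, 128284756-128328318), was at 61.8, 60.5 and 77.2 in cortex and at 7482, 8851 and 7908 in hippocampus, a difference of 6.91 ± 0.13 (adjusted p = 1.82e-06). For both genes every hippocampus library lay far above every cortex library, where the regions' libraries did not overlap for 44.2% of all genes tested. Genes named for the widest differences, such as these 2, were picked among those without overlap. The lack of overlap thus adds no support, here or for other genes named by small p or wide difference.

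Prox1, the homeodomain transcription factor that sets granule cell identity, was at 1625, 1019 and 1636 in cortex and at 10793, 13043 and 12114 in hippocampus (3.10 ± 0.19, adjusted p = 4.69e-05). C1ql2, a secreted organiser of mossy fibre synapses, was at 694, 511 and 676 in cortex and at 10314, 12949 and 11444 in hippocampus (4.21 ± 0.14, adjusted p = 6.32e-06). Each hippocampus library exceeded each cortex library for both genes. Slc29a4, a monoamine transporter, differed by 3.80 ± 0.13, and Scn3b, a sodium channel beta subunit, by 1.98 ± 0.10. The exons of Prox1 overlap Prox1os and those of Dsp overlap Gm10129, and no source used here says whether counting used strand, so those reads may include the partner's. The same holds for other genes named here whose exons another gene overlaps: Acd, Akap7, Aldh1l1, Amigo2, App, Bdnf, C1ql3, Cacna1h, Cacng2, Cacng8, Cdh9, Chrm2, Cnih2, Drd5, Epha6, Gabra5, Gria2, Gria3, Gria4, Grik4, Grin1, Grin2b, Grin2d, Grm2, Grm8, Homer3, Jun, Mobp, Neto1, Neto2, Neurod1, Nr3c2, Pcp4, Slc9a4, Sort1, Trp73, Tshz2 and Zbtb20.

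Of 10 CA1 markers 7 were higher in hippocampus. Fibcd1, a membrane receptor that binds acetylated sugars, was at 616, 520 and 573 in cortex and at 10176, 13098 and 11462 in hippocampus (4.34 ± 0.11, adjusted p = 3.92e-06). Spink8, a Kazal-type protease inhibitor, was at 36, 44.5 and 42.1 in cortex and at 1000, 956 and 921 in hippocampus (4.52 ± 0.14, adjusted p = 6.32e-06). Both were low and even across the cortex libraries. Wfs1, which encodes the endoplasmic reticulum protein wolframin, differed by 1.10 ± 0.08. Mpped1 from the same list was higher in cortex (-0.42 ± 0.07), and it is also expressed by neocortical neurons.

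The CA2 and CA3 list had 13 of 20 genes higher in hippocampus, 5 higher in cortex (2 without hippocampus library 3) and a median of 1.03. Iyd, the iodotyrosine deiodinase (chromosome 10, 3540240-3554877), was at 9.27, 0 and 3.01 in cortex and at 350, 417 and 359 in hippocampus, a difference of 6.76 ± 0.76 (adjusted p = 0.000763). Homer3, a postsynaptic scaffold protein, was at 632, 615 and 639 in cortex and at 4691, 5986 and 5255 in hippocampus (3.07 ± 0.10, adjusted p = 6.32e-06). Every hippocampus library exceeded every cortex library for both genes. Smaller differences were seen for Amigo2, an adhesion protein enriched in CA2 and CA3 (2.06 ± 0.12), Rgs14, a regulator of G protein signalling that marks CA2 (1.87 ± 0.09), and Prkcd, a protein kinase C (1.58 ± 0.09). Pcp4, a calmodulin-binding protein of CA2, went the other way at -0.83 ± 0.22 (adjusted p = 0.0314), and this call was lost without any 1 hippocampus library.

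Mossy cell, subiculum and Cajal-Retzius markers were split, with 5 of 14 higher in hippocampus and 4 higher in cortex (2 without hippocampus library 1 or 3). Trp73, a p53 relative expressed by Cajal-Retzius cells, was at 64.9, 41.4 and 49.2 in cortex and at 667, 434 and 521 in hippocampus (3.36 ± 0.23, adjusted p = 7.57e-05). Its hippocampus libraries ranked like the summed ependymal markers given below (6291, 3563 and 4699). Which cells its reads came from was not tested. Tshz2, a zinc finger homeobox gene, was higher in cortex at -1.12 ± 0.10, while in the knockout libraries its difference was 0.27.

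**Figure D2:**
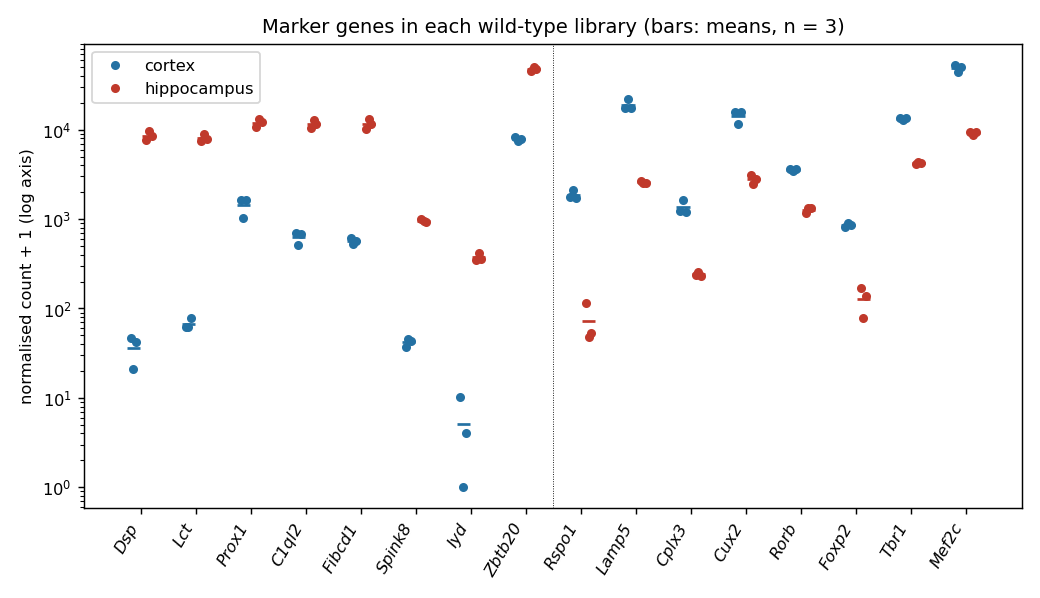
Normalised count + 1 (log axis) of 16 marker genes in each wild-type library, with bars at the means of n = 3; the 8 genes left of the dotted line belong to hippocampal lists and the 8 right of it to cortical lists. Dsp, Lct and Iyd show the widest gaps toward hippocampus and Rspo1 and Lamp5 toward cortex, and no gene's groups overlap.

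Among 20 transcription factors tied to hippocampal identity 10 were higher in hippocampus, 3 were higher in cortex (5 without cortex library 2) and 7 were not called. Zbtb20, a zinc finger repressor needed for hippocampal development, was at 8188, 7447 and 7949 in cortex and at 45199, 50088 and 48106 in hippocampus (2.60 ± 0.07, adjusted p = 4.88e-06). Lhx9, a LIM homeodomain factor, was at 17.5, 64.7 and 33.1 in cortex and at 802, 1062 and 975 in hippocampus (4.76 ± 0.42, adjusted p = 0.000244). The 3 NeuroD family genes on the list were higher as well, by 0.90 ± 0.12 for Neurod1, 1.07 ± 0.09 for Neurod2 and 1.17 ± 0.11 for Neurod6. Meis2, a TALE homeodomain factor, was higher in cortex (-1.13 ± 0.06). Lhx9, and Prkcd of the CA2 and CA3 list, are also on a list of thalamic neuron markers. Of its 12 tested genes 5 were higher in hippocampus and 4 in cortex, and the part of thalamic tissue was not tested.

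Upper cortical layer markers were higher in cortex for 14 of 22 genes and higher in hippocampus for 6, with a median of -0.96. Lamp5, which marks upper layer neurons and a class of GABA neurons, was at 17265, 21964 and 17656 in cortex and at 2648, 2564 and 2519 in hippocampus (-2.87 ± 0.10, adjusted p = 7.22e-06). Cux2, a homeodomain factor of upper layer neurons, was at 15802, 11476 and 15729 in cortex and at 3144, 2473 and 2816 in hippocampus (-2.34 ± 0.15, adjusted p = 5.45e-05). Rorb, the nuclear receptor of layer 4, differed by -1.49 ± 0.08. Wfs1 and Mdga1, both on this list, were higher in hippocampus; Mdga1, an adhesion protein that restrains synapse formation, differed by 2.97 ± 0.12.

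Deep layer markers were higher in cortex for 17 of 34 genes, higher in hippocampus for 7 and not called for 10. Foxp2, a forkhead factor of layer 6 neurons, was at 820, 896 and 851 in cortex and at 168, 78.3 and 136 in hippocampus (-2.81 ± 0.26, adjusted p = 0.000322). Cplx3, a complexin of the subplate, was at 1242, 1630 and 1199 in cortex and at 237, 258 and 233 in hippocampus (-2.47 ± 0.14, adjusted p = 3.38e-05). Both fell well below the cortex range in each hippocampus library. Fezf2, a master regulator of subcerebral projection neurons, differed by -0.71 ± 0.10. Bcl11b, its downstream partner that is also expressed in granule and CA neurons, was higher in hippocampus at 1.87 ± 0.12.

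The neocortical transcription factor list had 13 of 22 genes higher in cortex and 5 higher in hippocampus, where Bcl11b at 1.87 was the highest. Tbr1, a T-box factor of deep layers, was at 13526, 12708 and 13581 in cortex and at 4091, 4399 and 4257 in hippocampus (-1.64 ± 0.07, adjusted p = 9.91e-06). Mef2c, a MADS-box factor of excitatory neuron maturation, was at 52787, 44322 and 49982 in cortex and at 9323, 8804 and 9343 in hippocampus (-2.42 ± 0.08, adjusted p = 6.94e-06). Both genes separated the regions in each library.

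The other genes with the widest differences belonged to varied families. Rtl3, a retrotransposon-derived gene on chromosome X, had no read in any cortex library and 356, 446 and 434 normalised counts in hippocampus, at least 133-fold higher against a floor of 3 reads per library. Pla2g2f, a secreted phospholipase A2, was at 6.18, 6.36 and 0 in cortex and at 486, 658 and 500 in hippocampus (7.18 ± 0.74, adjusted p = 0.000517). Slc9a4, a sodium-proton exchanger, was at 9.27, 22.3 and 6.02 in cortex and at 775, 1012 and 913 in hippocampus (6.24 ± 0.42, adjusted p = 6.86e-05). These transcripts were close to absent from the cortex libraries and steady across the hippocampus libraries.

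On the cortex side, Stat4, a signal transducer of interleukin receptors, was at 135, 145 and 172 in cortex and had no read in hippocampus, at least 50.2-fold lower there. Rpe65, the retinoid isomerase of the eye, was at 112, 94.4 and 104 in cortex and had no read in hippocampus, at least 34.6-fold lower there. Rspo1, a secreted enhancer of Wnt signalling (chromosome 4, 124986430-125009099), was at 1758, 2115 and 1733 in cortex and at 113, 46.8 and 52.3 in hippocampus (-4.81 ± 0.32, adjusted p = 6.53e-05). All 3 genes were even across the cortex libraries. Dkkl1, a relative of the Dickkopf Wnt antagonists, differed by -4.62 ± 0.31, and Tgm3, a transglutaminase, by -4.38 ± 0.25. The exons of Stat4 overlap Gm28177. Igfn1, an immunoglobulin-domain gene, was at 6765, 4481 and 6462 in cortex and at 859, 65.1 and 449 in hippocampus (-4.30 ± 0.84, adjusted p = 0.00949), with hippocampus library 2 the lowest.

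Promoters of 4 genes with wide regional differences are shown, with hexamers in capitals that NeuroD factors (CAGATG, or CATCTG on the other strand) and ROR nuclear receptors (AGGTCA, or TGACCT) are known to bind. Each is the 250 bases before the RefSeq start (GRCm38.p6), 5′ to 3′ on the gene's strand, which is + for Iyd and Tgm3 and - for Il16 and Dkkl1. The 4 were chosen after their matches were seen. Il16 and Iyd were higher in hippocampus, Dkkl1 and Tgm3 in cortex.
Il16, chr7:83735540-83735789: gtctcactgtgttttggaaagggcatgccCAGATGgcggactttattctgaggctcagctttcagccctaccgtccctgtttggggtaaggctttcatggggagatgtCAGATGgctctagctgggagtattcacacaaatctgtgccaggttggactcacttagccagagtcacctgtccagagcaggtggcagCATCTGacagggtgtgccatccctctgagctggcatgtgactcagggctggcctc
Iyd, chr10:3540024-3540273: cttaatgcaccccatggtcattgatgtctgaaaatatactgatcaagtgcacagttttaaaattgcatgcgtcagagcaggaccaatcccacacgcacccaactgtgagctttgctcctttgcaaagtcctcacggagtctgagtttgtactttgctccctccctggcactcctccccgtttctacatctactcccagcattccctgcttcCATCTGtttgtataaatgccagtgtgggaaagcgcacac
Dkkl1, chr7:45211884-45212133: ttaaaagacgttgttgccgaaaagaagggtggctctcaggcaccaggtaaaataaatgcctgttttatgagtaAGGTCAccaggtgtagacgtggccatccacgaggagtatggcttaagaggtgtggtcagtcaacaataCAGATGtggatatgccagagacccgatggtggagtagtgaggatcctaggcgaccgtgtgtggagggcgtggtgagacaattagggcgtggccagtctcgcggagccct
Tgm3, chr2:130012090-130012339: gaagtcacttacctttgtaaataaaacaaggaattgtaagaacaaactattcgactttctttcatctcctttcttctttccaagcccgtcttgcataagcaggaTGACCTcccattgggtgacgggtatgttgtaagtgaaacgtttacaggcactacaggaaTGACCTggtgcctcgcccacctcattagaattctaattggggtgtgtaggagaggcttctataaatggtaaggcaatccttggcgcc
Il16, which encodes an interleukin precursor and is a granule cell marker, was at 139, 218 and 168 in cortex and at 3344, 4397 and 3872 in hippocampus (4.48 ± 0.18, adjusted p = 1.02e-05), and its exons overlap Stard5. The promoter shown, 1 of 3 that the table lists for Il16, held CAGATG 3 times and that of Iyd once, while Tgm3 held AGGTCA 2 times and Dkkl1 held each hexamer once. CAGATG was found in 14.4% of all 32851 promoters of this length and in 11.2% of the 17367 promoters of genes tested, against 15.8% of 919 promoters of genes higher in hippocampus by at least 1 and 13.8% of 863 promoters of genes higher in cortex by as much. AGGTCA was found in 14% of all promoters, 11.5% of those of genes tested, 12.5% of the hippocampus set and 14% of the cortex set. The matches are letters in a window and no binding was measured.

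Glutamate receptor genes differed subunit by subunit. Of 17 AMPA receptor subunits and auxiliary proteins 7 were higher in hippocampus and 7 in cortex. Gria1, the subunit inserted during synaptic potentiation, was at 24527, 22717 and 25141 in cortex and at 86373, 107156 and 97029 in hippocampus (2.00 ± 0.10, adjusted p = 2.19e-05). Gria4 was at 7886, 7240 and 8019 in cortex and at 3295, 3216 and 3299 in hippocampus (-1.24 ± 0.07, adjusted p = 3.11e-05). Gria2, the subunit that limits calcium entry, differed by 0.45 ± 0.09 (adjusted p = 0.00888), and Gria3 by -0.28 ± 0.08 (adjusted p = 0.0471). The call for Gria2 was lost without hippocampus library 3, and that for Gria3 with separate scaling or without any single library other than cortex library 2. With the length trend removed, Gria2 differed by 0.29 and stayed called.

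The auxiliary proteins that tune AMPA receptor gating and trafficking split in the same way. Shisa6 was at 1074, 931 and 1054 in cortex and at 14636, 18979 and 16488 in hippocampus (4.03 ± 0.11, adjusted p = 4.48e-06). Cnih2, a cornichon, was at 10341, 13707 and 10758 in cortex and at 31356, 39035 and 35492 in hippocampus (1.61 ± 0.13, adjusted p = 0.00017). Among the transmembrane regulators Cacng8 was higher in hippocampus (1.38 ± 0.11), and Cacng2 (-1.03 ± 0.10) and Cacng3 (-0.99 ± 0.08) were higher in cortex.

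Kainate receptor genes were divided, with 3 of 7 higher in each region and Grik5 not called. Grik4, a high-affinity subunit of CA3, was at 2296, 2638 and 2346 in cortex and at 4714, 5634 and 5095 in hippocampus (1.08 ± 0.09, adjusted p = 0.000219). Grik3 was at 10431, 6402 and 10827 in cortex and at 4603, 4736 and 4702 in hippocampus (-0.94 ± 0.19, adjusted p = 0.0112), with cortex library 2 lowest in its group. Grik2 (0.57 ± 0.11) and the auxiliary protein Neto1 (0.51 ± 0.10) were higher in hippocampus, and Grik1 (-0.48 ± 0.10) and Neto2 (-0.57 ± 0.11) in cortex. The calls for Neto1 and Neto2 were lost without hippocampus library 3, and that for Grik1 without cortex library 3 or hippocampus library 1 or 3.

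Of 7 NMDA receptor subunits 2 were higher in hippocampus. Grin2a, the subunit of mature synapses, was at 20127, 13825 and 19635 in cortex and at 34065, 42049 and 38446 in hippocampus (1.11 ± 0.16, adjusted p = 0.00224). Grin2b, which dominates early in development, was at 48413, 29264 and 47159 in cortex and at 63059, 75186 and 69178 in hippocampus (0.77 ± 0.19, adjusted p = 0.0276), a call lost without any 1 hippocampus library. Grin2d, a subunit of GABA neurons, was higher in cortex (-0.53 ± 0.10), a call lost without hippocampus library 3. The obligatory subunit Grin1 was at 54852, 46052 and 54464 in cortex and at 49241, 56091 and 52829 in hippocampus (0.03 ± 0.10, adjusted p = 0.863), with overlapping groups.

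Metabotropic glutamate receptors, which signal through G proteins, also had 3 of 7 higher in each region. Grm8 was at 1244, 1078 and 1169 in cortex and at 291, 296 and 331 in hippocampus (-1.92 ± 0.10, adjusted p = 2.97e-05). Grm4, a group III receptor, differed by -1.05 ± 0.10. Grm2 (0.27 ± 0.06), Grm3 (-0.56 ± 0.11) and Grm5 (0.75 ± 0.21) lost their calls when hippocampus library 1 or 3 was left out.

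Among 14 GABA-A receptor subunits 4 were higher in hippocampus, 4 were higher in cortex and 6 were not called. Gabra5, the subunit of extrasynaptic receptors on CA pyramidal cells, was at 3663, 3457 and 3344 in cortex and at 11912, 13917 and 12967 in hippocampus (1.89 ± 0.08, adjusted p = 1.25e-05). Gabra3 was at 8183, 7569 and 8122 in cortex and at 2425, 2366 and 2442 in hippocampus (-1.72 ± 0.06, adjusted p = 8.84e-06). Gabrd, the delta subunit of tonic inhibition, differed by -1.08 ± 0.07 and Gabra2 by 0.71 ± 0.07. Gabrb2 was at 9468, 3780 and 9110 in cortex and at 6280, 8170 and 7217 in hippocampus (0.06 ± 0.34, adjusted p = 0.916). Without cortex library 2, which was the lowest of the 6, its difference was -0.38 (adjusted p = 0.031).

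**Figure D3:**
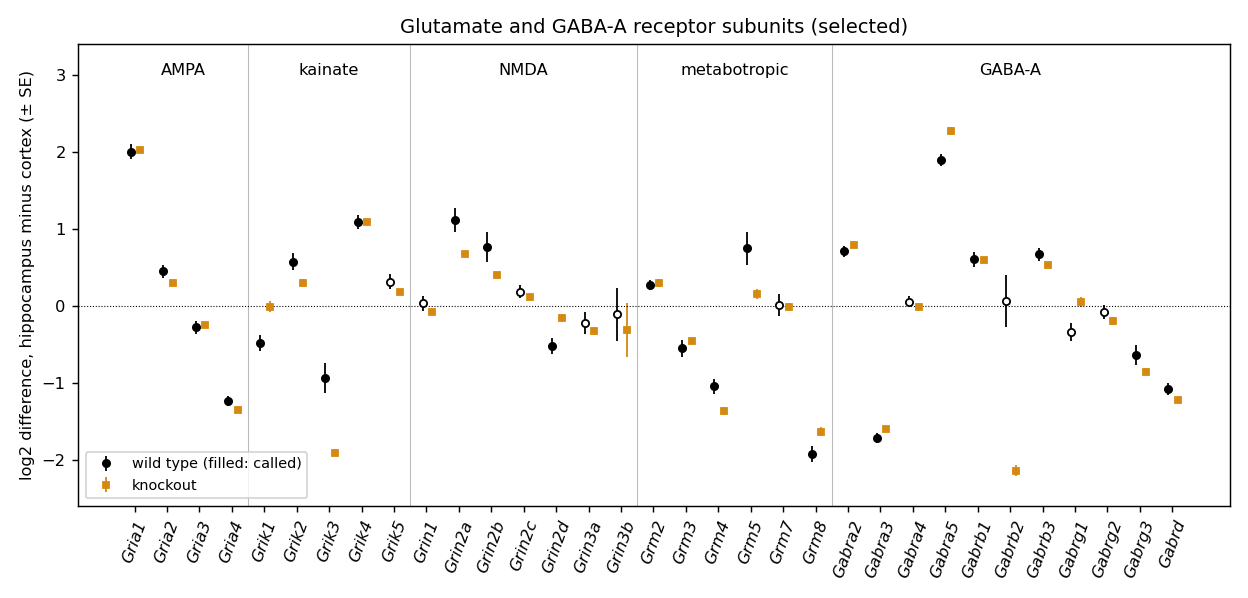
Difference of selected glutamate and GABA-A receptor subunits on the log2 scale, hippocampus minus cortex ± SE (n = 3 and 3); black circles are wild type, filled where called, and orange squares are the same contrast in knockout libraries. Gria1 at 2.00 and Gabra5 at 1.89 are the highest wild-type points and Grm8 at -1.92 is the lowest.

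Receptors for monoamines held some of the widest differences among receptor genes. Htr4, a serotonin receptor coupled to cyclic AMP, was at 131, 91.2 and 104 in cortex and at 886, 1071 and 1024 in hippocampus (3.19 ± 0.16, adjusted p = 2.44e-05). Drd5, a dopamine receptor of the D1 class, was at 87.5, 90.2 and 113 in cortex and at 1075, 1577 and 1331 in hippocampus (3.75 ± 0.18, adjusted p = 1.87e-05). Adra1b, an alpha-1 adrenergic receptor, was at 2141, 2152 and 2059 in cortex and at 258, 227 and 212 in hippocampus (-3.19 ± 0.10, adjusted p = 6.32e-06). The groups lay far apart for each gene. Htr1a, the inhibitory receptor of pyramidal cells, was higher in hippocampus by 1.57 ± 0.13, and Htr7 (-1.08 ± 0.10) and Htr2a (-0.67 ± 0.10) were higher in cortex. In all, 4 of 12 serotonin receptor genes were higher in hippocampus and 3 in cortex.

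Peptide and acetylcholine receptors gave further contrasts. Npy2r, a presynaptic receptor for neuropeptide Y, was at 216, 144 and 133 in cortex and at 2880, 3566 and 3019 in hippocampus (4.28 ± 0.19, adjusted p = 1.56e-05). Cckbr, the brain cholecystokinin receptor, was at 5305, 5756 and 5310 in cortex and at 636, 495 and 619 in hippocampus (-3.23 ± 0.11, adjusted p = 6.83e-06). Neither gene's groups overlapped. Crhr1, the receptor for corticotropin-releasing hormone, differed by -1.59 ± 0.07. The muscarinic receptor Chrm5 was higher in hippocampus (3.78 ± 0.46), while Chrm2 (-1.60 ± 0.15) and the nicotinic subunits Chrna4 (-1.10 ± 0.10) and Chrnb3 (-2.67 ± 0.18) were higher in cortex.

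Nr3c2, the mineralocorticoid receptor, was at 3078, 2401 and 2839 in cortex and at 15196, 18230 and 16603 in hippocampus (2.59 ± 0.11, adjusted p = 1.36e-05). Nr3c1, the glucocorticoid receptor, was at 9180, 7224 and 8877 in cortex and at 6750, 6750 and 6646 in hippocampus (-0.32 ± 0.10, adjusted p = 0.0547). The first separated the regions widely. The second was not called, though it was called higher in cortex in 8 alternatives, among them edgeR, DESeq2, TMM scaling and the fit without cortex library 2. Fkbp5, a chaperone partner that dampens glucocorticoid receptor signalling, was higher in hippocampus (1.28 ± 0.12), and Tsc22d3, a glucocorticoid-induced gene, was higher in cortex (-0.59 ± 0.11).

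Neurotrophin and receptor genes were higher in hippocampus for 6 of 8, and none was higher in cortex. The count was 3 without hippocampus library 1 and 1, Ntf3, without library 3. Ntrk2, a receptor gene of the list, was not called (-0.28 ± 0.11, adjusted p = 0.117). It was called higher in cortex without cortex library 2, with quantile normalisation and with the length trend removed. The same held with DESeq2 and in the fit of all 12 libraries. In the knockout libraries 5 of 9 genes were higher in hippocampus and 2 in cortex, Ntrk2 at -0.49 among them. Ntf3, which encodes neurotrophin-3, was at 41.2, 61.5 and 45.1 in cortex and at 477, 516 and 507 in hippocampus (3.34 ± 0.18, adjusted p = 3.15e-05). Bdnf, the activity-regulated neurotrophin, was at 1794, 2172 and 1640 in cortex and at 2479, 2876 and 2892 in hippocampus (0.56 ± 0.12, adjusted p = 0.0143). The step for Bdnf was small, and its call was lost without hippocampus library 2 or 3. Ngfr, Ntrk3 and Sort1 had differences of 0.68, 0.41 and 0.43, and each lost its call when hippocampus library 2 or 3 was left out. Ntrk3 also lost its call with the length trend removed, where its difference was 0.17.

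Markers of GABA neurons were higher in cortex for 18 of 32 genes and higher in hippocampus for 5, with a median of -0.53. Vip, the peptide of disinhibitory interneurons, was at 2719, 3620 and 2714 in cortex and at 568, 676 and 560 in hippocampus (-2.32 ± 0.14, adjusted p = 4.58e-05). Pvalb, the calcium buffer of fast-spiking cells, was at 3692, 5868 and 3872 in cortex and at 1518, 1571 and 1544 in hippocampus (-1.50 ± 0.17, adjusted p = 0.000766). Both separated the regions in every library. Sst, the somatostatin gene, was at 9706, 15336 and 10292 in cortex and at 8126, 10057 and 8975 in hippocampus (-0.35 ± 0.18, adjusted p = 0.198), with overlapping groups. Gad1, which makes GABA, differed by -0.48 ± 0.07.

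Neuropeptide genes were higher in cortex for 10 of 20, with 2 higher in hippocampus, a count that was 0 without hippocampus library 3. Adcyap1, which encodes the peptide PACAP, was at 1352, 1666 and 1421 in cortex and at 240, 202 and 190 in hippocampus (-2.81 ± 0.13, adjusted p = 1.87e-05). Crh, corticotropin-releasing hormone, was at 498, 818 and 611 in cortex and at 73.2, 128 and 93.6 in hippocampus (-2.70 ± 0.25, adjusted p = 0.000332). Npy differed by -1.0 ± 0.20. Cortex library 2 was the highest of its group for Adcyap1, Crh, Npy, Vip and Pvalb.

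Immediate early genes, which neurons switch on within minutes of activity, were higher in cortex for 13 of 22, a number that was 9 without hippocampus library 1 or 3, and higher in hippocampus for 4. Egr1, a zinc finger factor, was at 15156, 24013 and 19486 in cortex and at 5267, 6534 and 6015 in hippocampus (-1.70 ± 0.17, adjusted p = 0.000404). Fos was at 657, 1519 and 1038 in cortex and at 227, 469 and 365 in hippocampus (-1.58 ± 0.35, adjusted p = 0.0172). Cortex library 1 was the lowest and library 2 the highest cortex library for both, and the call for Fos was lost without cortex library 3 or hippocampus library 1 or 3. Nr4a3, an orphan nuclear receptor, and Jun, a partner of Fos that is also a listed granule cell marker, were higher in hippocampus by 1.73 ± 0.12 and 1.36 ± 0.09.

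Genes that wire circuits were well represented. Of 36 axon guidance ligands and receptors 18 were higher in hippocampus and 8 in cortex, with a median of 0.68. Epha7, an ephrin receptor, was at 2908, 2757 and 2682 in cortex and at 13819, 17431 and 15381 in hippocampus (2.48 ± 0.10, adjusted p = 9.46e-06). Efna5, an ephrin that binds EphA receptors, was at 3708, 3250 and 3509 in cortex and at 387, 292 and 366 in hippocampus (-3.33 ± 0.12, adjusted p = 8.49e-06). These 2 genes went in opposite directions. Epha6 (2.96 ± 0.30) and Nrp2, a semaphorin receptor (2.14 ± 0.15), were higher in hippocampus, and the repellent Sema3a (-2.67 ± 0.12) was higher in cortex.

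Classical cadherins, the calcium-dependent adhesion proteins, were higher in cortex for 10 of 15 genes and had a median of -0.60. Cdh6 was at 3094, 3182 and 3274 in cortex and at 936, 874 and 863 in hippocampus (-1.84 ± 0.07, adjusted p = 9.8e-06). Cdh9, which acts at mossy fibre synapses, was at 738, 741 and 667 in cortex and at 2371, 2830 and 2690 in hippocampus (1.87 ± 0.10, adjusted p = 2.45e-05). The secreted synaptic organisers were split: besides C1ql2, C1ql3 was higher in hippocampus (0.49 ± 0.10), while Cbln2 (-2.51 ± 0.08), Cbln4 (-1.85 ± 0.16) and Cbln1 (-1.63 ± 0.23) were higher in cortex. Cbln3 was called higher in hippocampus (1.66 ± 0.45, adjusted p = 0.0348). The call for C1ql3 was lost without hippocampus library 3, and that for Cbln3 without any 1 library other than hippocampus library 2. Among LIM-only transcriptional regulators Lmo1 (2.50 ± 0.13) and Lmo3 (1.16 ± 0.10) were higher in hippocampus and Lmo4 (-0.95 ± 0.12) in cortex.

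Wnt ligands and antagonists had 5 of 25 genes higher in hippocampus (3 without hippocampus library 3) and 7 higher in cortex. Beside Rspo1 and Dkkl1, Wnt10a was at 1243, 1219 and 1188 in cortex and at 255, 265 and 281 in hippocampus (-2.18 ± 0.09, adjusted p = 1.15e-05). Frzb, a secreted Wnt binder, was at 573, 561 and 551 in cortex and at 1159, 1426 and 1357 in hippocampus (1.22 ± 0.10, adjusted p = 0.000189). Potassium channel subunits, which set resting potential and repolarisation, were higher in cortex for 24 of 52 genes and higher in hippocampus for 8. Kcns1, a modulatory subunit, differed by -1.81 ± 0.09 and Kcnv1, another silent subunit, by -1.42 ± 0.07. Cacna1h, a T-type calcium channel, was higher in hippocampus (2.12 ± 0.20), and Scn4b, a sodium channel beta subunit, was higher in cortex (-1.59 ± 0.10).

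**Figure D4:**
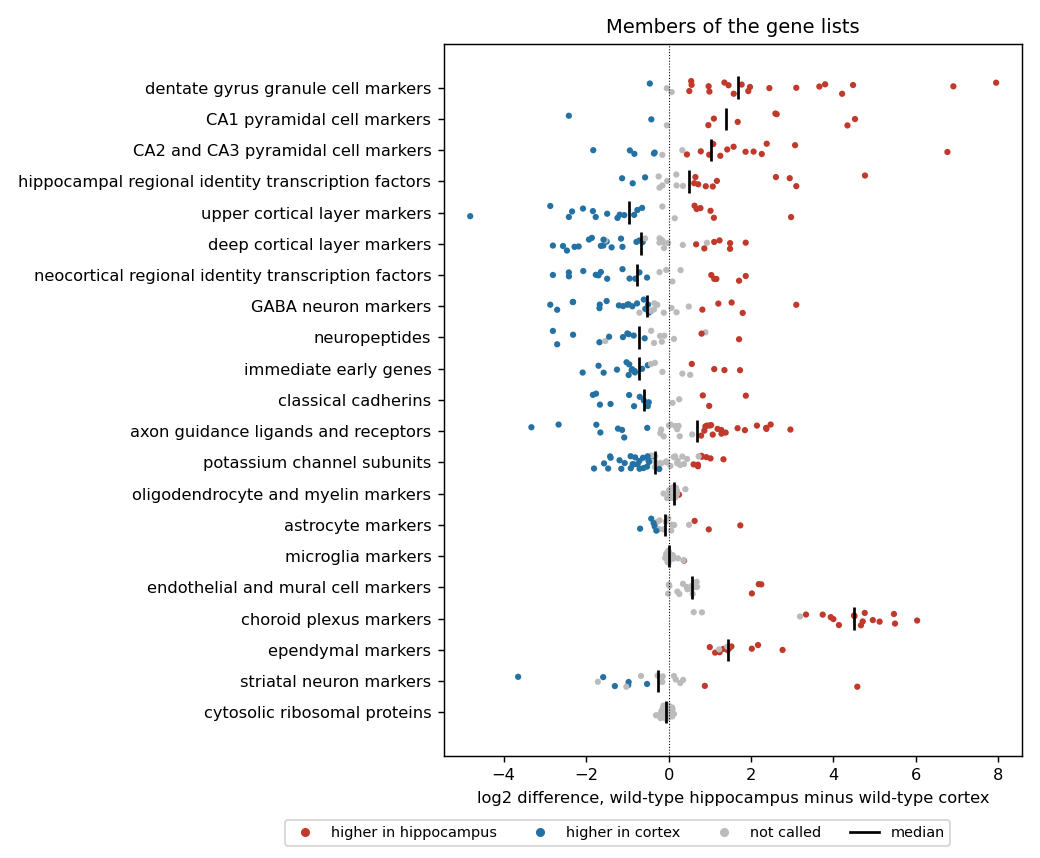
Each point is a tested gene of the list named at left, placed by its log2 difference of wild-type hippocampus minus wild-type cortex (n = 3 and 3); red genes were called higher in hippocampus, blue in cortex, grey were not called, and the black bar is the list's median. The bars lie at 1.68 for dentate gyrus granule cell markers, -0.96 for upper cortical layer markers and 0.00 for microglia markers.

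Few myelin and microglia markers were called. Of all genes tested 23.5% were called, 11.5% higher in hippocampus and 12% higher in cortex. Of 20 oligodendrocyte and myelin markers 1 was called, Mobp, a myelin protein gene, at 0.25 ± 0.07 (adjusted p = 0.033). Of 18 microglia markers 1 was called, Olfml3 at 0.38 ± 0.11 (adjusted p = 0.0476). Both calls were lost when any 1 hippocampus library was left out, and also with the length trend removed. The myelin list depended on the scaling and on cortex library 2: 8 of its genes were higher in hippocampus without that library and 12 with the tables' separate scaling. Oligodendrocyte precursor markers had 2 of 11 higher in hippocampus and 1 higher in cortex. Astrocyte markers had 3 of 18 higher in hippocampus and 5 higher in cortex, a number that was 2 without hippocampus library 1 or 3 or with separate scaling. Gfap, the intermediate filament of astrocytes, was at 8529, 9237 and 8738 in cortex and at 28726, 30471 and 29312 in hippocampus (1.74 ± 0.07, adjusted p = 9.08e-06), while Aldh1l1, a folate enzyme used as an astrocyte marker, differed by -0.69 ± 0.07.

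Choroid plexus markers were higher in hippocampus for 15 of 18 genes, but unevenly across libraries: 9 were called without hippocampus library 1 and 5 without library 3. Ttr, the thyroid hormone carrier secreted by choroid epithelium, was at 1009, 1324 and 986 in cortex and at 309041, 7587 and 157210 in hippocampus (6.03 ± 1.22, adjusted p = 0.0113). The summed level of the list was 4855, 5145 and 4761 in cortex and 366317, 15812 and 189445 in hippocampus, so libraries 1 and 3 were far above library 2, which itself exceeded the cortex. Kl, the anti-ageing factor klotho that is also expressed by neurons, was at 299, 218 and 268 in cortex and at 12759, 3194 and 7774 in hippocampus (4.71 ± 0.45, adjusted p = 0.000349). Cldn2, a tight junction protein, was at 14.4, 3.18 and 15 in cortex and at 1832, 49.8 and 1014 in hippocampus (5.49 ± 1.29, adjusted p = 0.0204), a call lost without hippocampus library 1 or 3.

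Lists of neighbouring cell types moved with the same libraries. Ependymal markers were higher in hippocampus for 11 of 13 genes, and for 8 without hippocampus library 1 or 3. Their summed level was 1656, 2020 and 1756 in cortex and 6291, 3563 and 4699 in hippocampus. The endothelial and mural sum was 35894, 35394 and 36977 in cortex and 78663, 37500 and 57828 in hippocampus, with 3 of 19 genes called, all of smooth muscle. Of these, Acta2, smooth muscle actin, was at 642, 782 and 583 in cortex and at 4089, 2069 and 3281 in hippocampus (2.19 ± 0.24, adjusted p = 0.000718). With hippocampus library 2 alone against the 3 cortex libraries, Ttr differed by 2.80 and remained called. The granule cell sum followed another order, 164377, 191043 and 176698 in hippocampus against 62824 to 77296 in cortex. The part of choroid tissue in other genes was not tested.

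**Figure D5:**
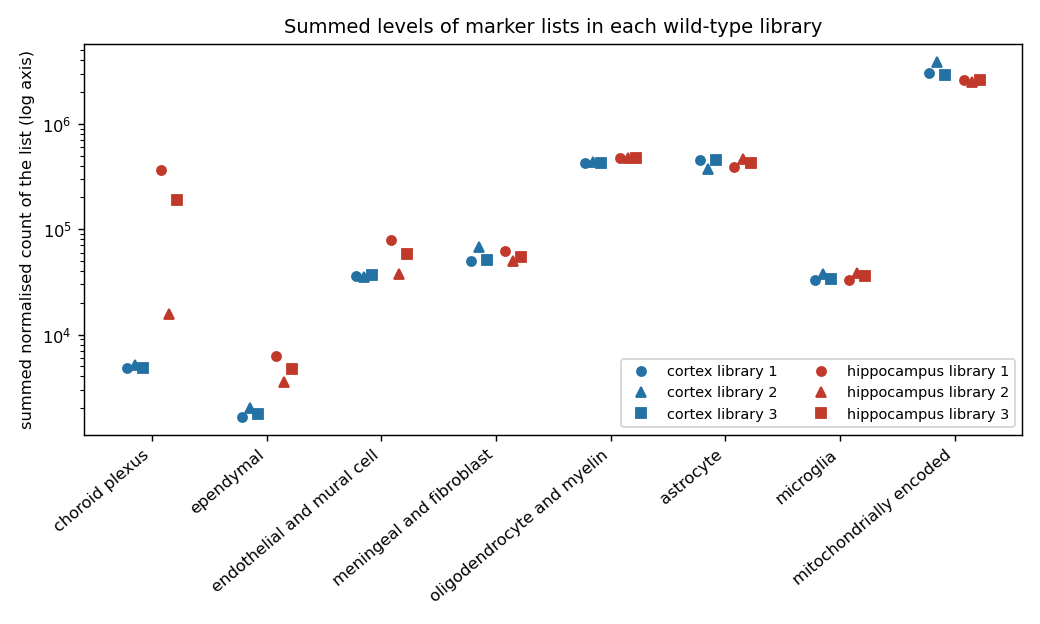
Summed normalised counts (log axis) of 8 lists in each wild-type library, blue for cortex and red for hippocampus, with the marker shape giving the library number. The choroid plexus sum spans 15812 to 366317 among hippocampus libraries, while the microglia and myelin sums lie close together in all 6 libraries.

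Striatal neuron markers had 6 of 19 genes higher in cortex and 2 higher in hippocampus, the latter 3 without cortex library 2 and 4 with separate scaling. The shares over all genes tested were 12% and 11.5% in the main fit. Drd2, the D2 dopamine receptor, was at 217, 134 and 167 in cortex and at 240, 159 and 229 in hippocampus (0.28 ± 0.24, adjusted p = 0.436). Lrrc10b, a leucine-rich repeat gene on the list, was at 219, 279 and 249 in cortex and at 5477, 6685 and 5742 in hippocampus (4.58 ± 0.12, adjusted p = 3.92e-06). None of the 6 erythroid and blood markers was called by limma, edgeR or DESeq2, and 0 had an unadjusted limma p below 0.05, but 5 were higher in hippocampus without cortex library 2.

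Tert itself was at 214, 111 and 253 in cortex and at 140, 175 and 122 in hippocampus (-0.34 ± 0.32, adjusted p = 0.488), with overlapping groups. Without cortex library 2 the difference was -0.70 (adjusted p = 0.031). Of 11 telomerase and shelterin genes 1 was called, where 23.5% of all genes tested were. It was Acd, the shelterin protein that recruits telomerase, at -0.44 ± 0.10 (adjusted p = 0.0194). Acd lost its call without hippocampus library 1 or 3 or with separate scaling. Without cortex library 2, 3 of the 11 were higher in cortex. App, the amyloid precursor, was at 113838, 103320 and 114791 in cortex and at 93320, 101624 and 96302 in hippocampus (-0.19 ± 0.09, adjusted p = 0.163), not called here but called without cortex library 2, with quantile normalisation, with the length trend removed and in the fit of all 12 libraries. Among 21 amyloid and tau genes 5 were higher in cortex, Apbb1, an adaptor that binds App, among them (-0.42 ± 0.07), and 1, Aph1b, was higher in hippocampus. Those numbers were 6 and 4 without cortex library 2, and 2 and 4 with separate scaling. In the main fit 12% of all genes tested were higher in cortex and 11.5% in hippocampus.

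Mitochondrially encoded genes had 5 of 13 higher in cortex and none higher in hippocampus, a call that held for 9 without cortex library 2 but for 1 without hippocampus library 1 or 3 or with separate scaling. Their summed level was 3035910, 3884680 and 2928190 in cortex and 2598040, 2478320 and 2583200 in hippocampus, with cortex library 2 the highest. Nuclear genes of oxidative phosphorylation had a median of -0.25, which was -0.10 without cortex library 2. Of the 29 genes 4 were higher in cortex, near the 12% of all genes tested. That count was 10 without cortex library 2 and 0 without hippocampus library 1 or 3 or with separate scaling. None of 43 cytosolic ribosomal protein genes was called by limma, edgeR or DESeq2, and 0 had an unadjusted limma p below 0.05, though 18 were higher in hippocampus without cortex library 2. Their sum was 378189, 551517 and 388269 in cortex and 411978 to 418777 in hippocampus. Their median was -0.07 with all libraries and 0.12 without cortex library 2, so no direction is given.

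In the 3 cortex and 3 hippocampus knockout libraries, fitted in the same way on their own, 11324 of 21801 genes were called (51.9%), 5684 higher in hippocampus (26.1%) and 5640 higher in cortex (25.9%). Of the 5308 wild-type calls 4519 were called the same way there, which is 85.1% of the wild-type and 39.9% of the knockout calls, and 40 were called the opposite way. Library 3 of the knockout groups also lay between libraries 1 and 2 in some sums. The meningeal and fibroblast sum, for example, was 47640, 88196 and 66566 in knockout hippocampus libraries 1 to 3. Whether these libraries are independent was not tested. If they are not, the knockout standard errors are too small and the calls too many. The knockout differences were 7.17 for Dsp, 6.80 for Lct, 4.13 for Fibcd1, -2.72 for Lamp5 and 2.03 for Gria1, beside wild-type values of 7.95, 6.91, 4.34, -2.87 and 2.00. For C1ql2 they were 6.30 in knockout and 4.21 in wild type. Some genes called in wild type were not called in knockout. Among them were Fezf2 (0.01 in knockout, -0.71 in wild type), Frzb (0.10 and 1.22) and Neto1 (-0.02 and 0.51). Sort1 (-0.04 and 0.43) and Grik1 (-0.01 and -0.48) were others. Granule cell markers were higher in hippocampus for 19 of 22 genes in the knockout too, with a median of 1.69.

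Other lists had different counts in the knockout libraries. Striatal markers were higher in cortex for 18 of 19 genes with a median of -1.88, and Drd2 differed by -2.96. Their summed level was 94839, 137527 and 116031 in knockout cortex and 40643 to 42483 in knockout hippocampus, where the wild-type cortex libraries held 48404 to 53110. Choroid plexus markers were higher in hippocampus for 8 of 18 genes with a median of 0.94, and Ttr differed by 0.66. Cytosolic ribosomal protein genes were higher in hippocampus for 41 of 43 and microglia markers for 16 of 18. The differences between the genotypes' contrasts were not tested.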

How the data were processed

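RNA-seq of total RNA from cortex and hippocampus was analysed. The authors deposited 1 table of normalised counts per tissue, a signal equal to the reads of a gene divided by 1 size factor per library; per the submitters' processing notes, STAR, HTSeq and DESeq2 were used with GRCm38, with no versions and no word on strand. In the 6 wild-type libraries 100% of deposited values were whole multiples of 1 step (tolerance 0.001), so reads were recovered. Tables were joined by Ensembl ID; 55141 of 55487 IDs matched GENCODE M21 (GRCm38) and 346 did not.

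The 6 wild-type columns were rescaled together by median of ratios (factors 0.945 to 1.05), and log2(value + 1) was fitted with limma 3.58.1 in R 4.3.3, with the prior variance trended on the mean. Genes with a mean of at least 10 were tested, and fold changes on this scale understate those of low genes. edgeR 4.0.16 and DESeq2 1.42.0 on recovered reads were alternatives. The 6 knockout columns were fitted likewise. The script was tested on simulated data.

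Members and the 47 gene lists (787 of 792 symbols found) were chosen with earlier results of these data known. Named were Tert and App, the 12 largest non-overlapping differences each way with a mean of at least 50 (8 predicted names passed over), the 3 smallest p and 2 largest differences of each list, and all members of small families. Chosen after their values were seen were Akap7, Pdzd2, Npnt, Wfs1, Mpped1, Pcp4, Neurod1, Neurod2, Neurod6, Cux2, Rorb, Fezf2, Bcl11b, Il16, Gria2, Gria3, Cnih2, Cacng2, Cacng3, Cacng8, Gabra2, Gabrb2, Pvalb, Sst, Gad1, Npy, Egr1, Fos, Nrp2, Drd2, Aph1b, Hipk2 and the lymphocyte genes of the closing section. A few genes are not reported here. Promoters came from a RefSeq table of GRCm38.p6.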

Additional observations from a re-analysis of the deposited data

Results flagged for a closer look

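Among the 247 genes followed, 2 had libraries that did not overlap between the regions in either genotype and differed in opposite directions; the difference between the genotypes was not tested. Over all genes, 40 were called in opposite directions. Syndig1l, a membrane protein of the striatal list, was at 283, 348 and 308 in wild-type cortex and at 580, 574 and 570 in wild-type hippocampus (0.88 ± 0.11, adjusted p = 0.00137), while its knockout difference was -1.68; its exons overlap Gm48573. Rpl8, a cytosolic ribosomal protein gene, was at 15008, 20650 and 15198 in wild-type cortex and at 15006, 14659 and 14303 in wild-type hippocampus (-0.19 ± 0.13, adjusted p = 0.315), so that the nearest libraries of the 2 regions all but met, while its knockout difference was 0.16.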

How the results depend on the processing

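The 20 alternatives in wild type left 127 of the 203 called genes among the 247 followed called in each of them, and 1 gene reversed: Gabrb2, not called at 0.06, differed by -0.38 without cortex library 2 and by up to 0.29 without any other 1 library. Leaving out 1 library gave 3042 to 7432 genes called, 1403 to 3478 higher in hippocampus and 1639 to 3954 higher in cortex; the lowest counts came without hippocampus library 3 and the highest without cortex library 2. The authors' separate scaling gave 4231 higher in hippocampus, 68.9% of calls against 49.0%. Hippocampus library 2 alone against cortex, an alternative chosen after seeing the data that assumes the lone library varies like the cortex libraries, called 1397 genes, 564 higher in hippocampus and 833 in cortex, of which 1310 were among the 5308; 71 of the genes followed lost their call there. Equal library numbers were not taken as pairs, since the labels do not say that they share an animal. The genes' deviations from their region's mean correlated at 0.0284, 0.00119 and 0.143 between same-numbered libraries of the 2 regions. With 3 libraries per region these values cannot show whether the libraries were paired. With the replicate block 4179 genes were called, 4019 of them among the 5308, and in the knockout libraries 10962 against 11324. edgeR called 5331, DESeq2 6499, and the fit of all 12 libraries 7831. At 69194788 to 75255744 reads per library, a missed call does not show equal levels.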

Other observations

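Constant-region genes of T-cell receptors and antibodies were among the genes with the widest difference toward cortex, in values looked at after the calls were seen. Trbc2, a T-cell receptor beta constant region, was at 792, 1108 and 847 in cortex and at 42.0, 13.2 and 31.2 in hippocampus (-5.07 ± 0.39, adjusted p = 0.00014). Trbc1, its near-identical neighbour with which reads may be shared, differed by -4.07 ± 0.28, and Ighg2c, an antibody heavy chain gene, by -4.17 ± 0.22. Cd4, a coreceptor of helper T cells, was at 86.5, 97.6 and 112 in cortex and at 42.0, 22.4 and 43.3 in hippocampus (-1.49 ± 0.30, adjusted p = 0.0112). Ptprc, the leukocyte antigen CD45, and Lck, a T-cell kinase, were not called, at 0.39 ± 0.13 (adjusted p = 0.0707) and 0.18 ± 0.21 (adjusted p = 0.569). The CD3 chains that a T cell needs for a surface receptor were near 0 in both regions: Cd3e was at 5.15, 0 and 0 in cortex and at 0, 5.08 and 10.1 in hippocampus, and Cd3d and Cd3g stayed at or below 6.10 in the 6 libraries. Trac, the alpha constant region, went the other way, at 14.4, 24.4 and 17.1 in cortex and at 37.1, 52.9 and 55.4 in hippocampus (1.34 ± 0.32, adjusted p = 0.0208). Ighm, the heavy chain of IgM, differed by -0.95 ± 0.11 (adjusted p = 0.000945), while Cd79a, the signalling partner of the B-cell receptor, was at 34.0, 43.5 and 37.1 in cortex and at 26.3, 40.7 and 30.2 in hippocampus and was not called. In the knockout libraries Trbc2 differed by -6.44 and Ighg2c by -4.60.

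Hipk2, a homeodomain-interacting kinase, shows how far cortex library 2 lay from its group, with 10667, 3303 and 10163 normalised counts in cortex and 9331, 10246 and 9702 in hippocampus.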
